A study of Mus musculus with 6 samples.

Results

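The promoter of Mxi1 was examined in ATAC-seq data from amputated mouse limb explants. It is 1 of the promoter windows in the deposited table (0.426% of them) and was taken as the only row whose gene symbol is Mxi1. Each window holds 100 bins, of 23500 in the table. ATAC-seq uses the Tn5 transposase to insert sequencing adapters into open DNA, so its signal measures chromatin accessibility, not transcript level. All explants were of wild type, from the outbred CD-1 stock of mice, and were collected 1 day after amputation. Of the 6 libraries, 3 came from limbs grown at the air-liquid interface (ALI) and 3 from limbs grown in 96-well plates. Per the labels, 4 limbs of each culture were collected and dissociated. The labels do not say whether libraries came from separate limbs or animals. The p-values below therefore reflect only how much these libraries varied, which may be technical. In the main limma fits, p-values and SEs take the variance from a trend over all promoters, not from Mxi1 alone. The series is titled as a study of how oxygen is sensed when a limb begins to regenerate. The comparison asks how accessibility differed between cultures, and the labels give no oxygen level for either.

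Mxi1 encodes a member of the MXD family of basic helix-loop-helix leucine zipper proteins. These proteins pair with MAX, bind E-box sequences, recruit SIN3 and histone deacetylases, and oppose activation by MYC. Mxi1 is known as a gene that hypoxia-inducible factors (HIFs) switch on in low oxygen, and it is transcribed from alternative first exons. HIFs bind a short core sequence, ACGTG or GCGTG, called the hypoxia response element.

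The window covers chromosome 19 from 53297950 to 53299949 on the plus strand, with the transcription start site (TSS) of the table at 53298950. These are coordinates of GRCm39, the build named in the submitters' processing notes. RefSeq (build GRCm38.p6) lists 3 starts for Mxi1, the second lying 18907 bp and the third 19189 bp downstream of the first. The distance of the table's TSS from the Blnk and Nfkb2 promoters of the same table was compared with the corresponding distances in RefSeq, each within its own build. For the first RefSeq start these distances differed by 0.314 kb (Blnk) and 0.421 kb (Nfkb2). For the second they differed by 19.2 and 17.3 kb, and for the third by 19.5 and 17.6 kb. The window therefore lies at the most upstream start, and the internal starts, more than 1000 bp away, are outside it and were not analysed here. Since the builds differ, single bases below cannot be assigned to single bins. The differences of 0.314 and 0.421 kb also exceed the 250 bases printed below, which may therefore not lie under the measured peak.

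The 250 bases upstream of the first and second RefSeq starts are shown to set the start nearest to the measured window beside the nearest of the internal ones, which were not measured. They lie at chr19:53310256-53310505 and chr19:53329163-53329412 (GRCm38.p6, plus strand). Capitals mark matches, on either strand, to the hypoxia response element core (ACGTG or GCGTG), the canonical E-box (CACGTG, which contains ACGTG), the GC box (GGGCGG), the CCAAT box (CCAAT) and the TATA box (TATAAA).
Mxi1 start 1: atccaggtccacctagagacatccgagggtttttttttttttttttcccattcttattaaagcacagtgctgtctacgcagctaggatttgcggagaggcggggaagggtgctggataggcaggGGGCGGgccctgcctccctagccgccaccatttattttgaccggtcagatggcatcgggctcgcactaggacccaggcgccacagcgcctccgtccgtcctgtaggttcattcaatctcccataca
Mxi1 start 2: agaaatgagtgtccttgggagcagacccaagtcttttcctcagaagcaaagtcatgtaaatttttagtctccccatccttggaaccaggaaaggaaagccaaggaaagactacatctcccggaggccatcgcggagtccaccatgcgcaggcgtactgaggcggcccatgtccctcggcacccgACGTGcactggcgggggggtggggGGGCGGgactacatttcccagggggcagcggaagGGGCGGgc

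In the upstream sequence the search found 1 GC box, at −126 relative to the start, and 0 matches to the other motifs. The sequence before the second start held 1 ACGTG, at −66 relative to that start, and 2 GC boxes. The 250 bases before the third start, not printed, held 1 ACGTG at −25 and 4 GC boxes. Over the same 250 bases of 32851 RefSeq promoters, ACGTG was present in 16.6%, GCGTG in 28.2%, the canonical E-box in 6.02%, the GC box in 32.7%, the CCAAT box in 33.9% and the TATA box in 12.4%. A match is a description of letters and not evidence of binding, and its absence says only that these letters are not in these bases. The first and second starts each had 13 CpG dinucleotides, more than 68.5% of RefSeq promoters (median 6), with a GC content of 55.2% and 60%. The third start had 42 CpG dinucleotides, more than 99.1% of promoters, and a GC content of 77.2%.

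Open chromatin at Mxi1 formed 1 dominant peak just upstream of the TSS in every library. Signal is depth-normalized coverage averaged in bins of 20 bp, as deposited, and a bin is named by its centre relative to the TSS. The summit lay at −70 bp in 4 libraries, at −50 bp in ALI replicate 1 and at −10 bp in 96-well replicate 1. Summit signal was 48.8, 45.6 and 72.1 in 96-well replicates 1, 2 and 3, and 43.3, 70.7 and 50.4 in the ALI libraries. The highest summits were those of 96-well replicate 3 and ALI replicate 2, and the groups overlapped. The means were 55.5 ± 14.4 (SD, n = 3) in 96-well and 54.8 ± 14.3 in ALI culture (exact two-sided permutation p = 0.9). The peak was 300 ± 20 bp wide at 0.5 of its height in 96-well libraries and 313.3 ± 30.6 bp wide in ALI libraries.

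The upstream side of the peak was steep and the downstream side sloped. From the bin at −210 bp to the next one at −190 bp, signal rose 1.86-, 2.36- and 2.70-fold in 96-well libraries and 2.16-, 2.40- and 2.92-fold in ALI libraries. The step was present in all 6 libraries. In the profile averaged over libraries it was 2.36-fold, and Mxi1 was the only promoter of the table (0.426%) with a rise that large between neighbouring bins where the first bin had a signal of at least 5, a limit set after the profile was seen. Downstream of the TSS, signal declined to a shelf. In the 96-well libraries it first fell to a low and then rose again. That low was 10.7 at 350 bp in replicate 1, 6.99 at 370 bp in replicate 2 and 14.6 at 330 bp in replicate 3. In ALI replicate 1 signal was 8.80 at 350 bp and 10.3 at 430 bp. Among the bins from 670 to 790 bp, the highest lay at 730 bp (750 bp in ALI replicate 2). It measured 9.59, 14.8 and 20.95 in 96-well and 9.48, 19.8 and 11.6 in ALI libraries. Closer to the TSS, the shelf was higher at 510 bp in 96-well replicate 1 (12.9) and at 530 bp in 96-well replicate 3 (21.01). In ALI replicate 1 it was higher at 570 bp (10.07). Among the bins from −790 to −570 bp, the highest lay between −690 and −650 bp. It measured 6.18, 9.79 and 11.9 in 96-well and 7.01, 8.41 and 5.46 in ALI libraries. In 96-well replicate 1, signal at −510 bp was higher, at 7.52. Both of these regional maxima overlapped between cultures.

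**Figure D1:**
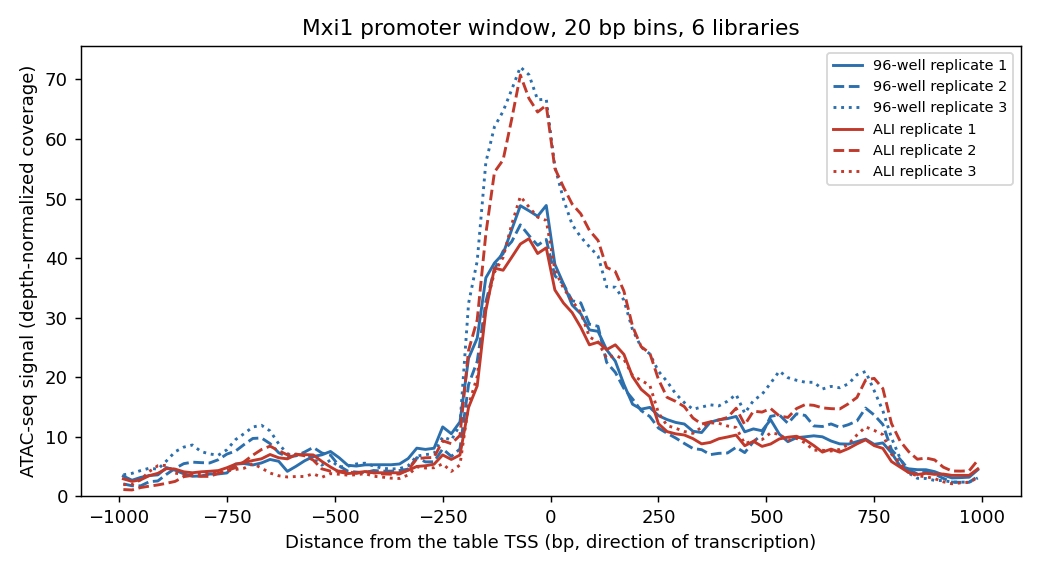
Depth-normalized ATAC-seq signal (y axis) against distance from the TSS of the table in bp (x axis) for the Mxi1 window, 1 line per library, blue for 96-well and red for ALI. Every library peaks between −70 and −10 bp with a steep upstream side, and the tallest curves, with summits of 72.1 and 70.7, come from 1 library of each culture.

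Signal at Mxi1 was concentrated at the peak more than at the average promoter of the table. The ratio of the central 400 bp to the outer 200 bp on each side was 9.68 ± 1.25 (SD, n = 3) in 96-well and 9.99 ± 1.88 in ALI libraries. Over the mean of all promoters the same ratio was 4.79 ± 0.27 and 5.69 ± 0.55, with ALI above 96-well in every library (exact permutation p = 0.1, the smallest that 3 libraries against 3 allow). At Mxi1 the groups overlapped, the difference was 0.31 (exact permutation p = 0.7), and it took either sign when single libraries were left out (−0.67 to 1.205). Among all promoters, 27.2% had a ratio that was higher in ALI without overlap.

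The 2 libraries with the tallest Mxi1 peak also had the highest signal over the whole table. Median promoter signal was 13.03 in 96-well replicate 3 and 14.7 in ALI replicate 2, against 8.32 to 9.81 in the other 4. Relative depth, taken from a step fitted to low values, was 0.767 to 1.29 of the mean. Estimated from the same step, the Mxi1 summit was covered by 296.3 to 812.1 reads per base. Of the fixed marker lists, the table held 6 of 8 ectoderm and apical ridge genes and 2 of 7 limb mesenchyme genes. It held 0 of 3 cartilage, 0 of 4 muscle, 0 of 4 blood and immune, 0 of 3 endothelial and 0 of 2 nerve genes, so those cell types could not be checked. A change in the share of a cell type and a change within cells cannot be told apart in bulk chromatin.

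Averaged over its 2000 bp, the Mxi1 window had no detected difference between cultures on the deposited scale, where the SE was large beside the change. Mean signal was 12.7, 12.4 and 18.6 in 96-well replicates 1, 2 and 3, and 11.5, 16.9 and 11.7 in ALI replicates 1, 2 and 3. ALI replicate 2 lay above 2 of the 96-well libraries, so the groups overlapped (2.13% of promoters were lower in ALI without overlap). The change, ALI minus 96-well on the scale of log2(signal + 1.06), was −0.11 ± 0.31 (SE; limma, Benjamini-Hochberg adjusted p = 0.92 over all promoters). On that scale limma called 0 promoters (0%), with an unadjusted p under 0.05 for 7 (2.98%). Without 96-well replicate 3 the change was 0.063.

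Set against the other promoters of its own library, Mxi1 stood lower in ALI. That standing is relative to the promoters of the table. Their median change on the deposited scale was 0.14, beside −0.11 at Mxi1, where no difference was detected. Its window was 1.53, 1.43 and 1.42 times the median promoter in the 96-well libraries, and 1.22, 1.15 and 1.19 times in the ALI libraries. The groups did not overlap, at 1.46 ± 0.06 (SD, n = 3) and 1.19 ± 0.04 (exact permutation p = 0.1, the smallest possible). After median centring, in which the median over promoters of a library's log2 departure from the mean of all libraries is taken off, the change was −0.28 ± 0.09 (SE; limma adjusted p = 0.013). On this scale limma called 51 promoters (21.7%), of which 24 (10.2% of all) were lower in ALI like Mxi1, and groups were lower in ALI without overlap at 17.4%. The change of Mxi1 was the 31st lowest. Here, and in the main fits of windows, segments and bins on both scales, limma took each variance from its mean-variance trend alone. The SE is therefore not the spread of the Mxi1 libraries. Without the trend Mxi1 was not called (limma adjusted p = 0.093). The call also ended without 96-well replicate 1 (−0.28, adjusted p = 0.093) or ALI replicate 3 (−0.26, adjusted p = 0.084), with scaling to equal flanks (−0.21, adjusted p = 0.073), with a pseudocount of 0.5 of the median promoter (adjusted p = 0.066) and with the mean of log2 bins (adjusted p = 0.19).

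Promoters of ectoderm and apical ridge markers, the surface cells that cover the limb bud, also stood lower in ALI on this scale in 5 of 6 cases. So did more than 50% of all promoters. The change was −0.40 at Fgf8, a growth factor of the ridge, which passed the test (limma adjusted p = 0.0020). The others did not pass, at −0.40 for Trp63, −0.25 for Cdh1, −0.25 for Sp8, −0.06 for Sp6 and 0.01 for En1. Trp63 had a low mean signal of 1.81, beside a pseudocount of 1.06. The median of the 6 was −0.25, beside −0.03 over all promoters. Their summed signal was 27.9 to 39.7 in 96-well and 27.2 to 37.1 in ALI libraries, or 3.05 to 3.35 and 2.52 to 3.07 times the median promoter, and 0 of them had no signal. The 2 mesenchyme markers of the table did not pass, at −0.19 for Msx1 and −0.03 for Msx2, and their summed signal was 2.00 to 2.16 times the median promoter in 96-well and 1.77 to 2.07 times in ALI libraries. The part of these cell types in the result at Mxi1 was not tested.

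Rank gave the same comparison without any scaling. From the highest signal down, Mxi1 was 72nd, 75th and 70th in 96-well replicates 1, 2 and 3, above 69.7, 68.4 and 70.5% of the others. In ALI replicates 1, 2 and 3 it was above 56.4, 54.7 and 56.4%. The mean rank moved from 72.3 ± 2.52 (SD, n = 3) to 104.3 ± 2.31, a shift of 32 places that exceeded the spread within either culture (exact permutation p = 0.1, the smallest possible). Ranks were lower in ALI without overlap at 46 promoters (19.6%). A mean shift of 32 places or more, in either direction, occurred at Mxi1 alone (0.426%). Mxi1 lies where many promoters have similar signal, so a modest change passes many of them. Ranked by the central 400 bp the shift was 24.7 places, which 8 promoters (3.40%, Mxi1 included) reached, and ranked by the mean log2 signal it was 20.3 places, which 18 (7.66%) reached.

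**Figure D2:**
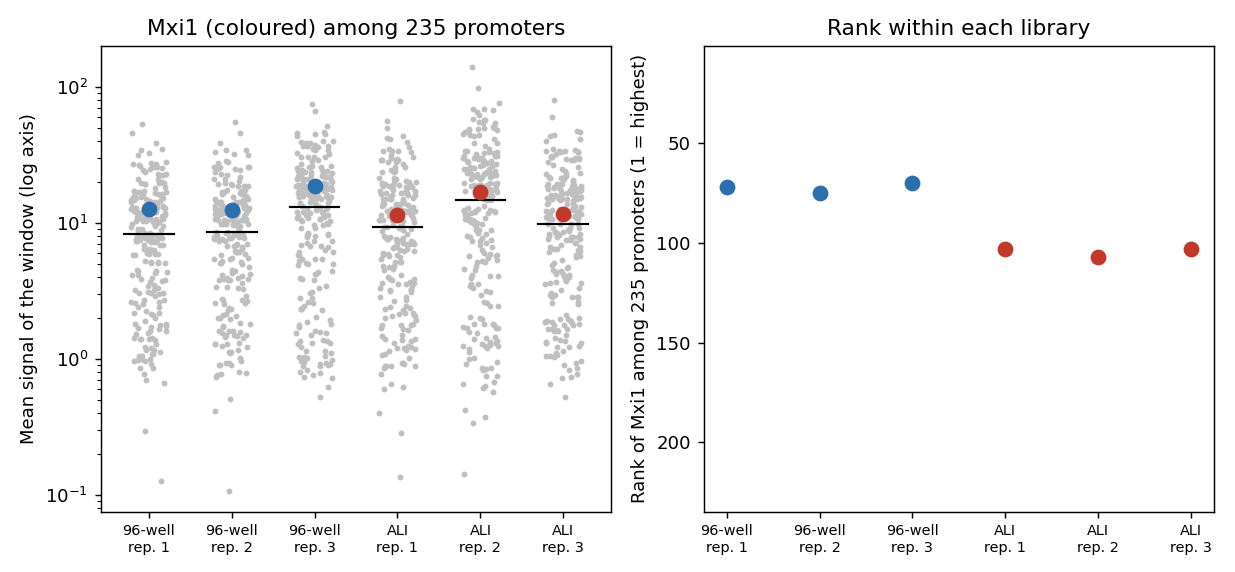
Left, mean signal of each promoter window by library on a log axis (grey points, black bar at the median, Mxi1 coloured). Right, rank of Mxi1 in each library, 1 being the highest signal. In the 96-well libraries Mxi1 lies clearly above the median at ranks 70 to 75, and in the ALI libraries closer to it, at a mean rank of 104.3.

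The 4 promoters nearest to Mxi1 in mean signal (13.96 over the 6 libraries) did not share 1 direction. Lef1, a nuclear effector of Wnt signalling with a mean signal of 13.9, went from a mean rank of 76.3 in 96-well to 101.3 in ALI (centred change −0.22, limma adjusted p = 0.060). Zfp711, a zinc finger gene at 13.98, went from 109.7 to 79 (0.36, limma adjusted p = 0.0019). A830018L16Rik and Zranb2, which encodes an RNA-binding zinc finger protein, kept mean ranks between 88.7 and 95.3. These levels differ from that of Mxi1 by less than its SD in either culture (3.47 in 96-well, 3.08 in ALI). The nearest promoter of the table on chromosome 19 was that of Nfkb2, an NF-κB subunit gene, whose centred level was higher in ALI (0.24, limma adjusted p = 0.043).

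Bin by bin, most of the Mxi1 window had a negative change after centring, and which bins were lowest depended on the scaling. On the deposited scale limma called 0 of 100 bins (background 0.119% of 23500 bins, lowest adjusted p for Mxi1 = 0.70), and 0 bins of Mxi1 had an unadjusted p under 0.05 (background 7.23%). At 11 bins, 1 at −730 bp and 10 between −510 and −310 bp, all ALI libraries lay under all 96-well libraries on that scale (background 5.72%), and the opposite held at 0 bins (background 5.34%). After centring, 89 of 100 bins were negative and 10 were called lower in ALI, against 3.37% of all bins called lower. Another 0 were called higher (background 3.28%). In 36 bins the groups did not overlap, all with ALI lower (background 14.5%, and 8.79% with ALI higher). Neighbouring bins share fragments, so these counts are not counts of independent events.

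The called bins lay at −710 and −510 bp, from −210 to −170 bp, at 510 and 530 bp, and from 610 to 650 bp. At −510 bp the groups overlapped after centring, although they did not as deposited. The lowest adjusted p was at −190 bp, on the steep upstream edge. Signal there was 23.2, 18.8 and 32.4 in 96-well replicates 1, 2 and 3, against 14.9, 24.5 and 15.3 in ALI replicates 1, 2 and 3. Those deposited values overlap, since ALI replicate 2 lies above 96-well replicates 1 and 2. Divided by the mean of all promoters at the same offset, they were 1.42, 1.10 and 1.35 in 96-well and 0.747, 0.745 and 0.708 in ALI. On that measure Mxi1 was above the average promoter in every 96-well library and below it in every ALI library (exact permutation p = 0.1). At this bin 22.1% of promoters were lower in ALI without overlap. The bin was picked for its lowest adjusted p in the same libraries, so the permutation is no separate test. The 22.1% counts the same bin in each promoter, not the lowest of its 100 bins. The centred change was −0.59 ± 0.16 (SE; limma adjusted p = 0.0075), and 4.70% of the other promoters had a lower value at this offset.

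At −210 bp, the last bin before the step, the centred change was −0.66 ± 0.20 (SE; limma adjusted p = 0.021), lower than in all but 1.71% of other promoters. That share was the lowest among the 100 bins of Mxi1. The ratio of this bin to the average promoter was 0.635 ± 0.18 (SD, n = 3) in 96-well and 0.330 ± 0.06 in ALI libraries. At 630 bp, on the shelf, the deposited signal was 9.98, 11.7 and 18.01 in 96-well and 7.41, 14.8 and 7.71 in ALI culture. The change there after centring was −0.56 ± 0.18 (SE; limma adjusted p = 0.036). There, too, ALI replicate 2 overlapped the 96-well values as deposited. At −70 bp, the most frequent summit bin, the ratio to the average promoter was 1.84 ± 0.11 in 96-well and 1.39 ± 0.05 in ALI. The groups did not overlap in that ratio. The share of all promoters without overlap was not taken at this bin, and at −190 bp it was 22.1%. The bin was not called after whole-window centring (−0.20, limma adjusted p = 0.46), but it was called when libraries were centred on the same bin of all promoters and under quantile normalization and cyclic loess. The largest positive centred change in the window was 0.08, in the last bin at 990 bp.

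**Figure D3:**
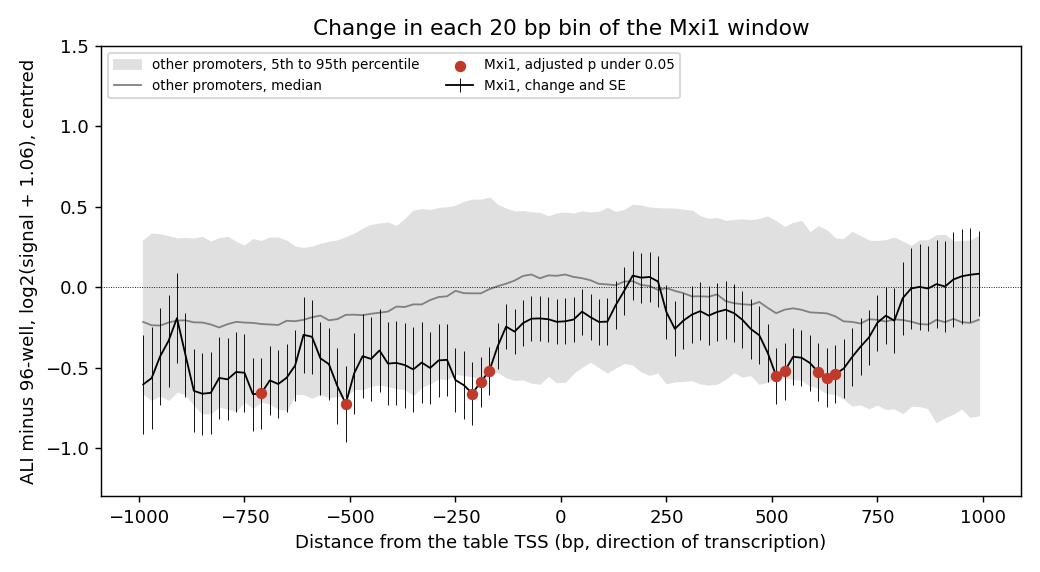
Centred change (ALI minus 96-well, y axis in log2 units) in each 20 bp bin of the Mxi1 window against distance from the TSS in bp, with SE bars and red points for the 10 called bins. The grey band spans the 5th to 95th percentile of the other promoters at each offset and the grey line is their median. Mxi1 runs under that median in 84 of 100 bins and is deepest at −510 bp (−0.72).

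The bin at −190 bp was the one called most often, in 15 of the 18 settings run on bins of 20 bp from the centred fit. The exceptions were the fit without the variance trend and those without 96-well replicate 1 or ALI replicate 3. The neighbours at −210 and −170 bp were called in 11 settings each, and no bin of the shelf in more than 6. Which other bins passed depended on the scaling. Quantile normalization called 16 bins and cyclic loess 14, all lower in ALI and all within 200 bp of the TSS, of which 2 (−190 and −170 bp) were among the 10 of the centred fit. Centring on the same bin of all promoters, a setting chosen after the results were seen, called 13 bins, all lower in ALI. Of these, 10 lay within 200 bp of the TSS, 3 lay upstream of that and 3 were among the 10 of the centred fit. Scaling to equal flanks called only the bins at −190 and −170 bp. From the centred fit limma called 5, 3 and 6 bins without 96-well replicate 1, 2 or 3, and 12, 6 and 0 without ALI replicate 1, 2 or 3.

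Segments of 400 bp gave fewer and less dependent values. Between −600 and −200 bp, signal was 7.02, 5.81 and 6.45 in 96-well replicates 1, 2 and 3 and 5.16, 5.61 and 3.87 in the ALI libraries. All ALI libraries lay below all 96-well libraries as deposited, at 4.88 ± 0.90 against 6.43 ± 0.61 (SD, n = 3), which 6.47% of all segments matched with ALI lower. On the deposited scale limma called 0 of the 5 Mxi1 segments (background 0.255%, with 94 of 1175, or 8%, at an unadjusted p under 0.05, 0 of them in Mxi1). After centring it called the 2 upstream segments, against 7.40% of all segments called lower in ALI. The count fell to 0 when ALI replicate 2, ALI replicate 3 or 96-well replicate 2 was left out, with equal flanks or with no variance trend, and to 1 without 96-well replicate 1 or 3. The change was −0.51 ± 0.17 (SE; limma adjusted p = 0.029) from −600 to −200 bp and −0.53 ± 0.18 (limma adjusted p = 0.032) from −1000 to −600 bp. From −600 to −200 bp the groups overlapped after centring, although they did not as deposited. From −1000 to −600 bp they overlapped as deposited but not after centring. On the centred scale 17.4% of all segments were lower in ALI without overlap. The central segment stood at −0.21 ± 0.12 (limma adjusted p = 0.29), and the downstream ones at −0.25 and −0.29 without passing.

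After whole-window centring, the outer segments of the average promoter also had negative changes. The median centred change of all promoters was −0.24 from −1000 to −600 bp, −0.10 from −600 to −200 bp and 0.04 in the central segment. On the deposited scale these medians were −0.07, 0.07 and 0.21. When each segment was centred on the same segment of all promoters, a setting chosen after the results were seen, the upstream changes were −0.31 (limma adjusted p = 0.53 over promoters) and −0.41 (0.11). The central segment of Mxi1 was then the one called, at −0.29 ± 0.11 (SE; limma adjusted p = 0.030). Quantile normalization and cyclic loess likewise called the central segment alone, at −0.41 and −0.38 (limma adjusted p = 0.00045 and 0.00028). All 5 segments were negative under each of these scalings, while the segment that passed depended on the scaling.

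**Figure D4:**
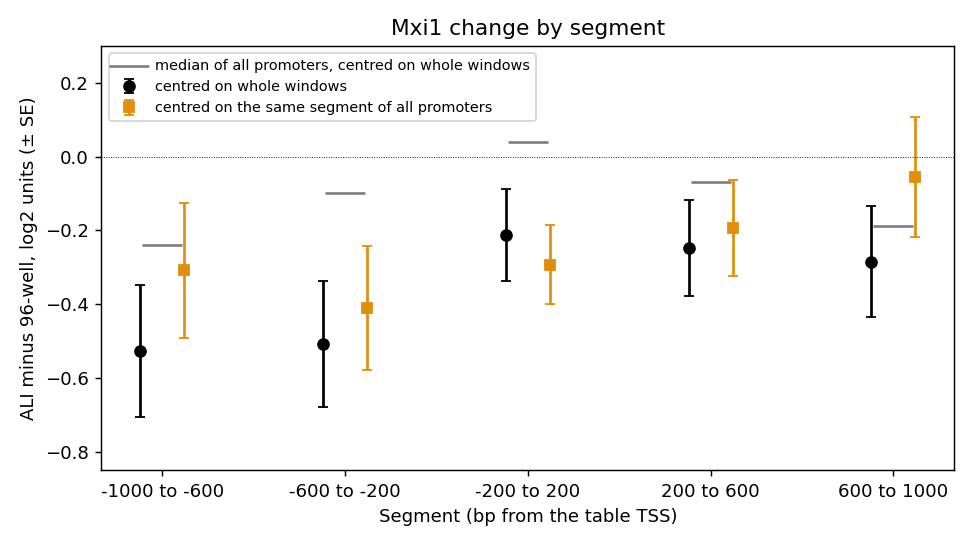
Change of Mxi1 (ALI minus 96-well, log2 units, bars are SE) in 5 segments of 400 bp, with libraries centred on whole windows (black) or on the same segment of all promoters (orange), and the median of all promoters under the former (grey). The upstream segments are lowest in black, at −0.53 and −0.51, where the grey median is also negative, and the orange central segment lies at −0.29.

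Shares of the window's signal do not change when a library is multiplied by 1 factor, and in segments of 400 bp they overlapped between cultures. The central segment held 53.2, 52.1 and 54.3% of the window signal in 96-well libraries and 54.2, 57.4 and 56.5% in ALI libraries. The difference of 2.82 percentage points was within an overlap of the groups (exact permutation p = 0.2, adjusted p = 0.33 over 5 segments). Shares of the segments from −1000 to −600 bp and from −600 to −200 bp differed by −1.46 and −1.70 percentage points (exact permutation p = 0.2 each). The groups overlapped in 5 of 5 segments. In 10 segments of 200 bp the shares did not overlap in 2, the one from 0 to 200 bp (21.9% in 96-well, 24.3% in ALI) and the one from 400 to 600 bp (9.08% and 8.35%). The same held, in the same direction, at 17.9% and 19.6% of promoters. For comparison, 24.7% of promoters had a central share that was higher in ALI without overlap. A share lower in ALI without overlap occurred at 21.3% of promoters from −1000 to −600 bp, at 12.3% from −600 to −200 bp, at 17.9% from 200 to 600 bp and at 28.9% from 600 to 1000 bp.

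Of the genes named in a list of the MYC and MAX network, the table held Max, the partner that Mxi1 shares with MYC, beside Mxi1 itself, out of 17. The Max promoter had a mean signal of 30.04 and a centred change of 0.12 (limma adjusted p = 0.41), which did not pass. Of 31 genes in a hypoxia list, Mxi1 alone was in the table, so its change cannot be set beside other hypoxia targets.

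Across the 6 libraries, the centred level of Mxi1 was most like those of Cd55, a complement regulator (Pearson r = 0.98), Tcf7, a Wnt effector (0.98), Gm43573 (0.98), Gm38584 (0.98) and Tifa, an adaptor of NF-κB signalling (0.96). The median over all other promoters was 0.04. These 5 were lower in ALI after centring, by −0.30 to −0.43 (limma adjusted p = 0.00051 to 0.012), and share libraries and centring with Mxi1, so the values describe the table only. In the shape of the mean profile over 100 bins, Mxi1 was most like Khdrbs2 and Ubap1 (r = 0.96 each) and Msx1, Zscan22 and Rint1 (r = 0.95 each), against a median of 0.64. Among those, Zscan22, a zinc finger gene, had a higher centred level in ALI (0.30, limma adjusted p = 0.00999), and the other 4 did not pass, at −0.19 to 0.01.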

How the data were processed

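Signal in the deposited table is coverage that the authors normalized to depth, per the file headers, and averaged with deepTools in 20 bp bins from 1000 bp upstream to 1000 bp downstream of 235 TSSs. Rows with only zeros were skipped, per the file headers, and the formula of the normalization is not given there. The build GRCm39 and the tools deepTools 3.5.1, Picard, Bowtie2 2.5.1, Trim Galore 0.6.10 and SAMtools 1.16.1 appear, without a role, per the submitters' processing notes. No source used here says whether reads were shifted for the Tn5 offset, whether duplicates were removed or how the 235 genes were chosen. Every one of the 6 tracks was matched to its library by name.

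Values were tested as log2(signal + 1.06), the pseudocount being 0.1 of the median promoter signal, with limma 3.58.1 in R 4.3.3 (eBayes with trend) over all windows, segments or bins, with Benjamini-Hochberg adjustment over all of them and a threshold of 0.05. For single measures the test was an exact two-sided permutation of 3 against 3 libraries (smallest p 0.1). Relative depth was read from a step fitted to low bin values and chosen so that nearly all were whole multiples of it. That 100% of them were so within 0.1 of a step is therefore no separate check. Reads per base assume that a step is a single read over a single base of a bin. Total reads are unknown. Precision is given for single measures by the SD between libraries, and for limma by an SE from the variance trend over all features. The limma steps were tested on simulated data with independent noise and with changes larger than that of Mxi1. That test does not measure error rates for bins that share fragments or for a change as small as that of Mxi1. Alternatives were other pseudocounts, scalings, regions and bin widths, a low-signal filter, a replicate block, no variance trend and each library left out. Named promoters were Mxi1, members of the 2 fixed gene lists and of the marker lists, the 5 most like it in level across libraries and the 5 in profile, the 4 nearest in signal, and the nearest on its chromosome. The marker lists and the promoter were chosen with earlier results of these data known. Promoter sequences come from RefSeq (GRCm38.p6).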

Additional observations from a re-analysis of the deposited data

How the results depend on the processing

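Under every alternative except 1 the whole-window change of Mxi1 stayed negative: without 96-well replicate 3 it was 0.063 on the deposited scale, where leaving out single libraries gave −0.28 to 0.063. From that scale, median centring (−0.28) and quantile normalization (−0.33) passed the threshold of limma. They also moved the called segments from 0 to 2 and 1, and the called bins from 0 to 10 and 16, while equal flanks gave 2 bins. The centred change did not pass with the larger pseudocount (−0.21), with equal flanks (−0.21), without the variance trend (−0.28) or as a mean of log2 bins (−0.21, from −0.205), and it ranged from −0.32 to −0.23 over left-out libraries. From 2 segments called after centring, the count went to 4 without the 58 weakest promoters, to 1 under quantile normalization, cyclic loess, same-segment centring and without the 2 libraries of highest signal, and to 0 with equal flanks or no trend (0 to 2 over left-out libraries, 0 when ALI replicate 2 or 3 or 96-well replicate 2 was left out). From 10 bins it went to 27 without the weakest promoters, 16 under quantile normalization, 2 with equal flanks, 2 with the larger pseudocount, 2 of the wider 100 bp bins, 1 without the 2 libraries of highest signal and 0 without trend (0 to 12 over left-out libraries). With replicate number as a block, 5 bins were called and no other call changed. The labels do not say whether same-numbered libraries are paired. Deviations of same-numbered libraries correlated at 0.67, −0.61 and −0.60. Of the differently numbered pairs, 96-well replicate 3 and ALI replicate 2 correlated highest, at 0.81, and the others at −0.72 to 0.54. With 3 libraries per culture these values cannot decide whether the numbers pair the libraries. With segments of 200 bp, 2 shares did not overlap (0 to 3 over left-out libraries at 400 bp). The rank shift was 24.7 places by the central 400 bp and 20.3 by mean log2 signal, with 30.7 to 33.3 over left-out libraries. The central-to-flank ratio differed by −0.67 to 1.205 over left-out libraries. The causes of these dependences were not tested. Settings without the libraries of highest signal, same-offset and same-segment centring and the rank comparisons were chosen after the data were seen.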
